A study of Mus musculus with 24 samples.

Results

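Transcript levels of 10 Krüppel-like factor (KLF) genes were followed in mouse microglia exposed for 2 h to LPS, carbon nanotubes, fluorescent dyes or a virus vector. The 10 genes, Klf2, Klf3, Klf4, Klf6, Klf7, Klf9, Klf10, Klf11, Klf13 and Klf16, were a named list matched by symbol, and all 10 were found among the 54838 genes of the deposited table. All 10 also passed the filter on low counts and were among the 13116 genes tested. KLF proteins bind GC-rich and CACCC sequences through a conserved zinc finger domain and differ in their other regions. Some members mainly activate transcription (Klf2, Klf4, Klf6, Klf7), some recruit the Sin3a corepressor (Klf9, Klf10, Klf11, Klf13, Klf16), and Klf3 represses through CtBP proteins. In macrophages, Klf2 and Klf4 are known as restraints on inflammatory activation and Klf6 as a promoter of it.

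The study asked how probes used in neuroscience change the transcripts of SIM-A9 cells, a mouse microglial line, with LPS as the inflammatory positive control. Each of 8 groups had 3 poly-A RNA libraries. Cells in 48-well plates were moved to 270 uL of serum-free medium, 30 uL of the sample was added 2 h later, and RNA was taken after another 2 h. The labels give no concentrations and do not say that replicates came from separate cultures, so p-values measure the spread between these libraries, which may be technical. The groups were untreated control, LPS (bacterial lipopolysaccharide), (GT)6 SWCNT (single-walled carbon nanotubes with a short DNA strand), COOH SWCNT (carboxylated nanotubes), Fura-2 (a calcium indicator), DiBASC2 and Di-2-ANEPEQ (voltage-sensitive dyes) and AAV (adeno-associated virus). All groups shared the cell line, the serum-free medium and the 2 h exposure. The labels spell Di-2-ANEPEQ in 3 ways, and the treatment field gives the DiBASC2 libraries the names Di-BASC0, Di-BASC1 and Di-BASC2, so the sample titles set the groups.

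Libraries held from 17364272 to 29259221 counts, and KLF genes from 8 to 7220. Levels are given in CPM, read counts scaled to library size with TMM factors. A call means an adjusted p under 0.05 in the quasi-likelihood test of edgeR, where the Benjamini-Hochberg adjustment ran over all tested genes. Index numbers of the libraries ran in blocks by group, so library order and group cannot be told apart. All 10 microglial markers examined were detected in every group, with summed levels between 1877 and 2155 CPM. Single markers did move against control. LPS had 3 called lower, (GT)6 SWCNT 3 higher and 3 lower, COOH SWCNT 1 higher and 2 lower, and AAV 1 lower. Over all genes 28.3%, 20.4%, 20.0% and 5.00% were called in these comparisons. The canonical markers P2ry12 and Tmem119 were low (means of 2.28 and 3.79 CPM). Syt1 (neurons), Mog (oligodendrocytes), Cldn5 (endothelium) and Dcn (fibroblasts) had 0 counts in every library, and the astrocyte marker Gfap reached at most 0.370 CPM. The astrocyte list rested on 1 of its 4 genes, the enzyme gene Aldoc (93.3 to 121 CPM), which was lower in LPS (98.5 against 108 CPM in control, adjusted p 0.0392) and higher with Di-2-ANEPEQ (120.0 CPM, adjusted p 0.0441). Aqp4 had at most 2 counts, and the part of such cells in the results was not tested.

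The promoters of Klf6, Klf7, Klf9 and Klf13 are shown because the first pair rose in LPS and the other pair fell. The sequences lie upstream of the RefSeq start site (build GRCm38.p6, 5′ to 3′ on the gene's strand) and hold no bases of an exon that GENCODE annotates for the gene. The Klf7 stretch lies within the annotated gene, because a further GENCODE transcript begins upstream of it, and is intronic for that transcript. They cover chr13:5861239-5861481 on the plus strand for Klf6 and chr1:64121492-64121639 on the minus strand for Klf7. For Klf9 they cover chr19:23140976-23141225 on the plus strand, and for Klf13 chr7:63938916-63939165 on the minus strand. Capitals mark matches on either strand to the CCAAT box (CCAAT), the GC box (GGGCGG), the CACCC box (CCACCC), the E-box (CACGTG), the AP-1 site (TGANTCA) and the TGACG core of the cyclic AMP response element.
Klf6: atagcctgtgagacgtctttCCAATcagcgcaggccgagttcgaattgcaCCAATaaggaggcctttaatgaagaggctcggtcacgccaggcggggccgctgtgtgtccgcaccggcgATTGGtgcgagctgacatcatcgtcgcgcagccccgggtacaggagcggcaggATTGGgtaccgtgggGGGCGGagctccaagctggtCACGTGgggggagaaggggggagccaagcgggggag
Klf7: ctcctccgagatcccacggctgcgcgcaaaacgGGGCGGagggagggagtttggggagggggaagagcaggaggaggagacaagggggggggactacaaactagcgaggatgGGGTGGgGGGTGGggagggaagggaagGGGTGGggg
Klf9: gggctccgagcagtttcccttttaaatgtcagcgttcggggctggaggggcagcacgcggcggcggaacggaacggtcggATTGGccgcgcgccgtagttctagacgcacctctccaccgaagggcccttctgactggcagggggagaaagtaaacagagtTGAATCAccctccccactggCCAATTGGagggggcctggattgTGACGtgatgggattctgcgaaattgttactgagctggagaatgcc
Klf13: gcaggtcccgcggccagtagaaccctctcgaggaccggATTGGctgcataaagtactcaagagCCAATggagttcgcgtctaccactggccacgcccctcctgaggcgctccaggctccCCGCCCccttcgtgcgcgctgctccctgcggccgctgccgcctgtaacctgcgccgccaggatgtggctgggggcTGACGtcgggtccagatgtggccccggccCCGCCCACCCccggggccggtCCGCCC
The Klf6 promoter held 4 CCAAT boxes, 1 GC box and 1 E-box, whereas Klf7 held 3 CACCC boxes and 1 GC box. Klf9 held 3 CCAAT boxes, a pair of which overlap in its longest capital run, 1 AP-1 site and 1 TGACG. Klf13 held 3 GC boxes, 2 CCAAT boxes, 1 TGACG and 1 CACCC box that overlaps a GC box.

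RefSeq windows of 250 bases were at hand for 8 of the 10 members (not Klf10 or Klf16). The GC box was in 7 of the 8 windows, all but that of Klf9, and in 32.7% of all 32851 windows of that length. The CCAAT box was in 4 of 8 (33.8% of all windows), the CACCC box in 4 of 8 (28.1%), the E-box in 3 of 8 (6.02%), TGACG in 4 of 8 (17.8%) and the AP-1 site in 1 of 8 (6.75%). No member window held TATAAA (12.4% of all windows), the full element TGACGTCA (1.55%), a kappaB site (7.25%) or a CArG box (1.47%). Member windows ranged from 59.2% to 78.4% GC, above the median of 52.4% over all windows. Klf6 and Klf7, which rose together in the results that follow, had only the GC box in common among these motifs.

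In untreated cells Klf6 was the most abundant member per length of exon, at 38.9 ± 0.789 RPKM (CPM per kilobase of exon, SD, n = 3). The length is that of all annotated exons of a gene merged, not of 1 transcript. The order depends on it, as in CPM Klf13 (53.05) stood above Klf16 (38.25). Klf16 followed at 14.3 ± 0.677 RPKM, Klf13 at 7.04 ± 0.131 and Klf10 at 5.54 ± 0.661. Klf7 was at 3.06 ± 0.133 RPKM, Klf9 at 2.18 ± 0.0729, Klf3 at 1.86 ± 0.124 and Klf11 at 1.68 ± 0.206. The levels of Klf3 and Klf11 lay within the sum of their SDs. Klf4 (0.884 ± 0.0775 RPKM) and Klf2 (0.570 ± 0.184) were lowest. Of the 7 other KLF genes in the mouse list, only Klf1 was tested, with 2 to 17 counts per library and no call in any comparison. Klf14 and Klf15 had 0 counts in every library, and Klf5, Klf8, Klf12 and Klf17 had at most 3.

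**Figure D1:**
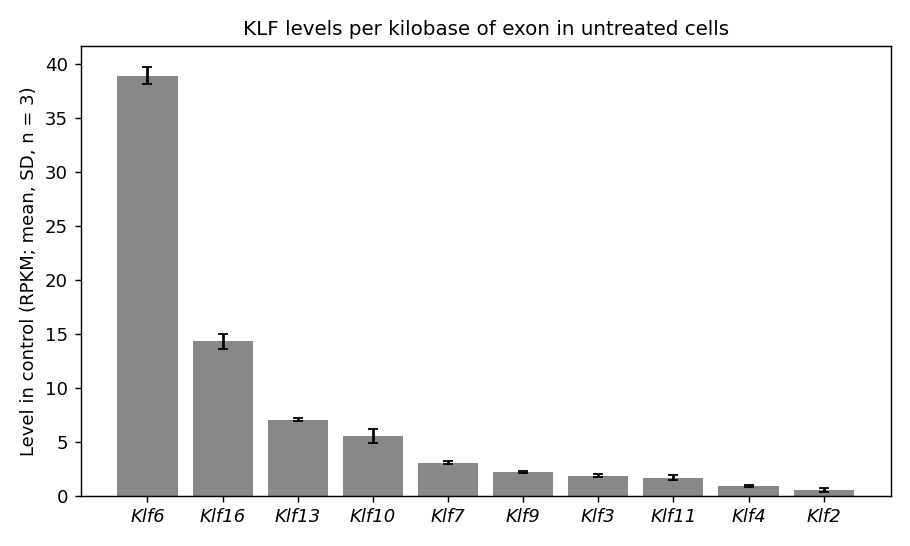
Level of each KLF gene in untreated control cells, in RPKM on a linear axis. Bars are means of 3 libraries and error bars are SDs. Klf6 stood at 38.9 RPKM and Klf2 at 0.570.

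Against control, LPS moved 5 of the 10 members. Klf6 and Klf7 rose, and Klf9, Klf10 and Klf13 fell. Over all tested genes 28.3% were called in this comparison, 13.8% higher and 14.5% lower. (GT)6 SWCNT raised 6 members and COOH SWCNT 5, and no member was called lower with either. The backgrounds were 20.4% called with (GT)6 SWCNT (9.90% higher and 10.5% lower) and 20.0% with COOH SWCNT (9.39% higher and 10.6% lower). The median log2 fold change of the 10 members was −0.22 in LPS, where that of all genes was −0.0084. It was 0.19 with (GT)6 SWCNT (all genes −0.0171) and 0.17 with COOH SWCNT (all genes −0.0016). These 3 comparisons share the control libraries. In these bulk samples, fewer cells of a type and less RNA per cell cannot be told apart.

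**Figure D2:**
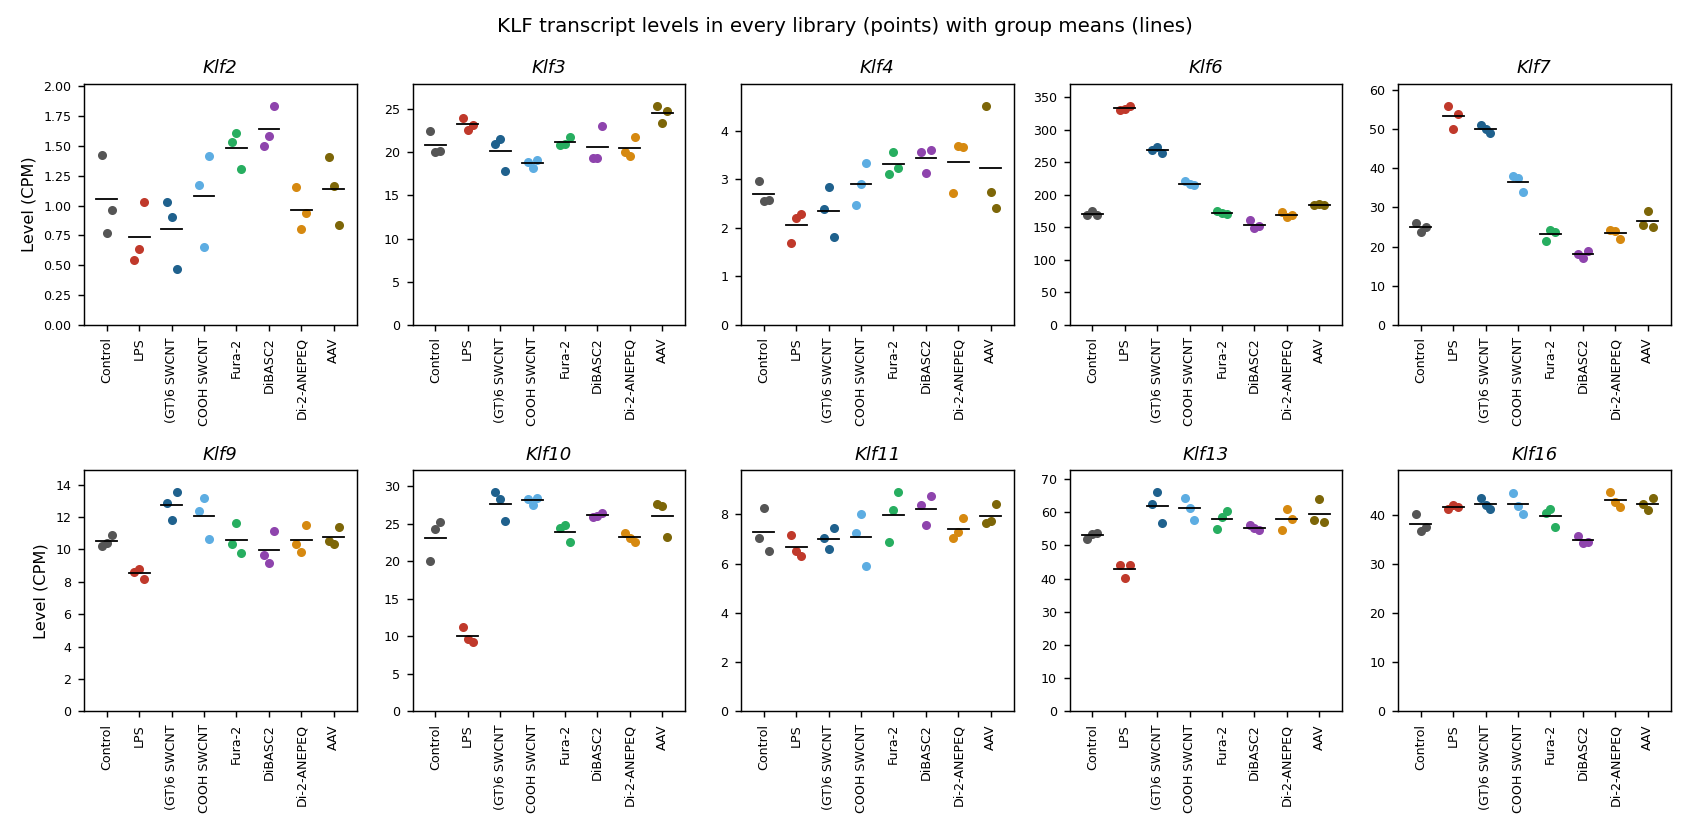
Level of each KLF gene in CPM in all 24 libraries, 1 panel per gene with its own linear axis from 0. Points are libraries and lines are means of 3. Klf6 and Klf7 stand highest in LPS and lowest in DiBASC2, whereas Klf10 is lowest in LPS.

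Among the activating members, Klf6 (ENSMUSG00000000078.7, protein-coding, chromosome 13, 5861482 to 5870394, plus strand, GRCm38) is an early response gene induced by many stimuli. Its level was 169, 175 and 169 CPM in the control libraries and 331, 332 and 338 CPM in LPS. It was 269, 273 and 265 CPM in (GT)6 SWCNT and 221, 216 and 215 CPM in COOH SWCNT. The 4 groups formed separate steps with no overlap between libraries, LPS highest and control lowest. The fold change was 1.95 in LPS (95% confidence interval 1.86 to 2.05, adjusted p 1.21e-23), 1.58 in (GT)6 SWCNT (1.502 to 1.65, adjusted p 7.02e-18) and 1.27 in COOH SWCNT (1.21 to 1.34, adjusted p 8.17e-10). Each step was also called when the groups were compared directly. (GT)6 SWCNT was below LPS, with a log2 difference of −0.31 ± 0.03 (SE, adjusted p 1.86e-09), and COOH SWCNT was further below LPS, at −0.62 ± 0.03 (adjusted p 1.03e-17). (GT)6 SWCNT was above COOH SWCNT by 0.31 ± 0.03 (adjusted p 1.55e-08).

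Klf7 (ENSMUSG00000025959.13, protein-coding, chromosome 1, 64029447 to 64122282, minus strand) encodes a factor known for its role in neuronal and adipose differentiation. It stood at 25.99, 23.8 and 24.9 CPM in control and at 56.1, 50.1 and 53.9 CPM in LPS. It was 51.1, 50.1 and 49.0 CPM in (GT)6 SWCNT and 37.9, 37.6 and 34.1 CPM in COOH SWCNT. All 9 of these treated libraries were above all control libraries, and LPS and (GT)6 SWCNT overlapped. The fold change was 2.15 in LPS (1.96 to 2.35, adjusted p 8.83e-17), 2.02 in (GT)6 SWCNT (1.84 to 2.21, adjusted p 2.94e-15) and 1.47 in COOH SWCNT (1.34 to 1.61, adjusted p 5.32e-08). (GT)6 SWCNT was not called against LPS, with a fold of 0.939 whose interval ran from 0.864 to 1.02 (adjusted p 0.319). COOH SWCNT was lower than LPS (log2 fold change −0.55 ± 0.06, SE; adjusted p 2.76e-09) and lower than (GT)6 SWCNT, which exceeded it by 0.46 ± 0.06 (adjusted p 7.07e-07). An opposite-strand long noncoding gene, Gm26649, shares 39.3% of the exon bases of Klf7. The strand setting of the counting is not given in the sources used here, so reads of the antisense gene cannot be told apart from those of Klf7.

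Klf2 and Klf4, the members known as restraints on inflammatory activation, were scarce and gave no call. Klf2 (ENSMUSG00000055148.7, chromosome 8, 72319033 to 72321656, plus strand) had 8 to 45 counts per library. The control libraries held 1.43, 0.766 and 0.961 CPM, and the LPS libraries 0.543, 0.635 and 1.03 CPM. With nanotubes the level was 1.03, 0.903 and 0.469 CPM in (GT)6 SWCNT, while COOH SWCNT libraries held 1.18, 0.651 and 1.42 CPM. LPS and both nanotube groups overlapped control. The LPS fold change was 0.722 with an interval from 0.445 to 1.17 (adjusted p 0.348), so a fall and a small rise were both inside the interval at this depth. With (GT)6 SWCNT the fold was 0.801 (0.502 to 1.28, adjusted p 0.573), and with COOH SWCNT 1.07 (0.689 to 1.65, adjusted p 0.878).

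Klf4 (ENSMUSG00000003032.8, chromosome 4, 55527143 to 55532466, minus strand) had 31 to 125 counts per library. It was at 2.97, 2.55 and 2.56 CPM in control and at 1.69, 2.20 and 2.29 CPM in LPS. The LPS libraries all lay below control, yet the fold of 0.772 (0.563 to 1.06) was not called (adjusted p 0.234). In (GT)6 SWCNT Klf4 was at 2.35 ± 0.512 CPM (SD, n = 3) and in COOH SWCNT at 2.90 ± 0.429, both overlapping control (adjusted p 0.651 and 0.781). The 3 COOH SWCNT libraries, at 2.47, 2.91 and 3.32 CPM, lay above the 3 LPS libraries, but the difference was not called (log2 fold change 0.48 ± 0.21, SE; adjusted p 0.0763).

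Klf10 and Klf11 are the TGF-beta-inducible members and act as Sin3a-recruiting repressors. Klf10 (ENSMUSG00000037465.10, protein-coding, chromosome 15, 38291463 to 38300706, minus strand) was at 20.0, 24.2 and 25.2 CPM in control and at 11.3, 9.67 and 9.26 CPM in LPS. It was at 29.2, 28.2 and 25.4 CPM in (GT)6 SWCNT and at 28.3, 27.5 and 28.4 CPM in COOH SWCNT. LPS libraries lay below, and nanotube libraries above, every control library. The fold change was 0.433 in LPS (0.382 to 0.491, adjusted p 6.53e-14), which placed Klf10 as the 145th lowest of 13116 genes by fold change. It was 1.19 in (GT)6 SWCNT (1.07 to 1.33, adjusted p 0.0137) and 1.21 in COOH SWCNT (1.09 to 1.35, adjusted p 0.00756). Both small rises lost their call without control replicate 1, the lowest control library, and the one in (GT)6 SWCNT also without (GT)6 SWCNT replicate 1 (adjusted p up to 0.102 and 0.0833).

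Set directly against LPS, Klf10 was 2.76-fold higher in (GT)6 SWCNT (2.44 to 3.12, adjusted p 1.58e-16) and 2.80-fold higher in COOH SWCNT (2.48 to 3.16, adjusted p 7.05e-17). The nanotube groups did not differ from each other beyond their spread (fold 0.986, interval 0.889 to 1.09, adjusted p 0.883). Klf11 (ENSMUSG00000020653.12, chromosome 12, 24651274 to 24662789, plus strand) was at 7.03, 8.26 and 6.52 CPM in control and ranged from 5.92 to 8.89 CPM over all 24 libraries. Its groups all overlapped control, and it was called in none of the 10 comparisons. Its fold in LPS was 0.908 (0.765 to 1.08, adjusted p 0.445).

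Klf9, Klf13 and Klf16 belong to the same repressor branch. Klf13 (ENSMUSG00000052040.10, protein-coding, chromosome 7, 63886351 to 63938915, minus strand), known as a regulator of the chemokine gene Ccl5 in T cells, was at 51.9, 53.5 and 53.8 CPM in control. It was at 43.96, 40.2 and 44.04 CPM in LPS, at 62.5, 66.0 and 56.9 in (GT)6 SWCNT and at 64.3, 61.3 and 57.8 in COOH SWCNT. LPS was below control and both nanotube groups were above it, with no overlap. The fold change was 0.805 in LPS (0.741 to 0.875, adjusted p 6.18e-05), 1.17 in (GT)6 SWCNT (1.08 to 1.27, adjusted p 0.00318) and 1.15 in COOH SWCNT (1.06 to 1.25, adjusted p 0.00783). The COOH SWCNT call was lost without COOH SWCNT replicate 1 (adjusted p 0.0664). Against LPS, Klf13 was 1.45-fold higher in (GT)6 SWCNT (1.34 to 1.57, adjusted p 1.79e-09) and 1.43-fold higher in COOH SWCNT (1.32 to 1.55, adjusted p 2.73e-09).

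Klf9 (ENSMUSG00000033863.2, protein-coding, chromosome 19, 23141226 to 23168134, plus strand) is a known target of the glucocorticoid and thyroid hormone receptors. It was at 10.2, 10.4 and 10.9 CPM in control and at 8.59, 8.79 and 8.18 CPM in LPS. It was at 12.9, 11.8 and 13.5 CPM in (GT)6 SWCNT and at 12.4, 13.2 and 10.7 CPM in COOH SWCNT. LPS lay below and (GT)6 SWCNT above all control libraries, and COOH SWCNT overlapped control. The fold was 0.811 in LPS (0.703 to 0.937, adjusted p 0.0233) and 1.21 in (GT)6 SWCNT (1.06 to 1.39, adjusted p 0.0357), and in COOH SWCNT it was 1.15 (1.004 to 1.31, adjusted p 0.147) and not called. The LPS call was lost with DESeq2 and without control replicate 2 or 3 or LPS replicate 1 or 3 (adjusted p up to 0.103). The (GT)6 SWCNT call was lost with DESeq2, with no filter on low counts, and without control replicate 1 or 2 or (GT)6 SWCNT replicate 1 or 3 (up to 0.0976).

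The direct comparisons with LPS did not depend on those choices. Klf9 was 1.49-fold higher in (GT)6 SWCNT than in LPS (1.299 to 1.72, adjusted p 1.9e-05) and 1.41-fold higher in COOH SWCNT than in LPS (1.23 to 1.62, adjusted p 8.77e-05), and both calls held in all 14 alternatives run. Klf10 and Klf13 also kept these calls in all 14. Klf9, Klf10 and Klf13 were thus lower in LPS than in either nanotube group, whereas Klf6 and Klf7 rose against control in all 3 groups.

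Klf16 (ENSMUSG00000035397.8, chromosome 10, 80567124 to 80577321, minus strand) was at 40.3, 36.8 and 37.7 CPM in control and at 41.1, 42.1 and 41.6 CPM in LPS. It was at 43.5, 42 and 41.2 CPM in (GT)6 SWCNT and at 44.5, 41.8 and 40.3 CPM in COOH SWCNT. The libraries of (GT)6 SWCNT were all above control, and COOH SWCNT overlapped it. The folds were 1.11 in (GT)6 SWCNT (1.03 to 1.19, adjusted p 0.0449) and 1.11 in COOH SWCNT (1.03 to 1.19, adjusted p 0.0478), and in LPS 1.09 (1.01 to 1.18, adjusted p 0.0810, not called). The (GT)6 SWCNT call was lost in 6 of 14 alternatives and the COOH SWCNT call in 8, among them leaving out control replicate 2 or 3 or replicate 1 or 2 of the treated group (adjusted p up to 0.149 and 0.255).

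Klf3 (ENSMUSG00000029178.14, chromosome 5, 64803388 to 64832901, plus strand), the CtBP-recruiting repressor, was at 22.5, 20.0 and 20.1 CPM in control and at 23.96, 22.6 and 23.1 CPM in LPS. It was at 20.98, 21.6 and 17.8 CPM in (GT)6 SWCNT and at 18.9, 18.2 and 19.1 CPM in COOH SWCNT. LPS lay just above and COOH SWCNT just below control, and neither was called (folds 1.12, 1.003 to 1.24, adjusted p 0.124, and 0.900, 0.809 to 1.002, adjusted p 0.168). COOH SWCNT was lower than LPS, with a fold of 0.807 (0.726 to 0.897, adjusted p 0.00109). In (GT)6 SWCNT the fold against LPS was 0.872 (0.785 to 0.969, adjusted p 0.0566), which was not called. An opposite-strand gene, Gm20033, shares 3.6% of the exon bases of Klf3.

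**Figure D3:**
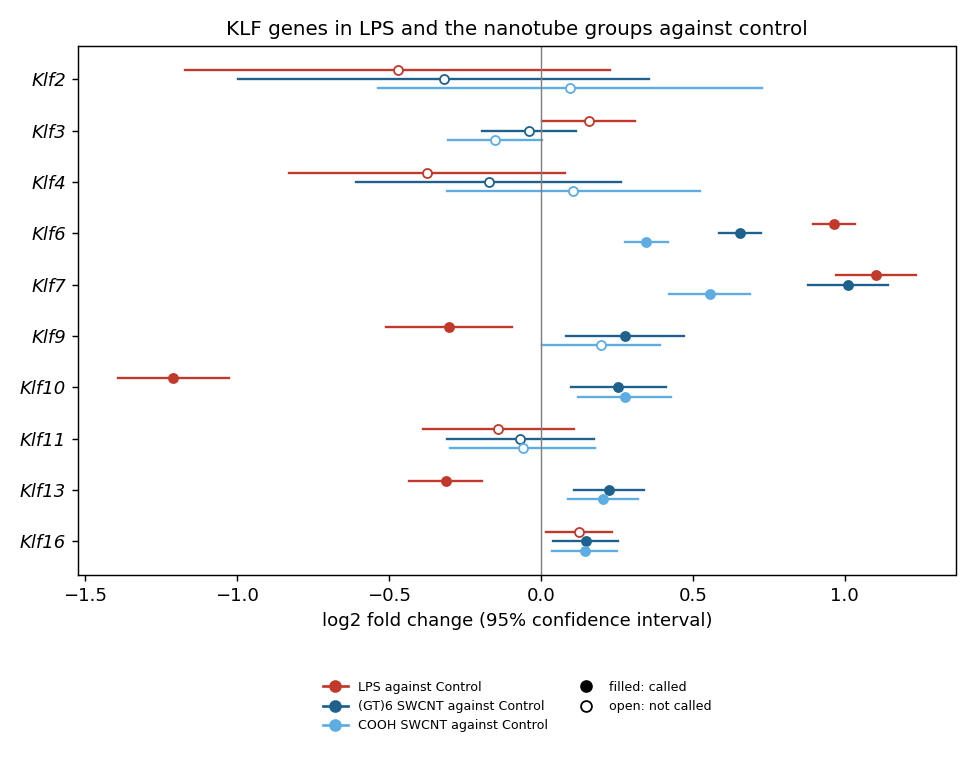
Log2 fold change of each KLF gene against control (x axis) in LPS, (GT)6 SWCNT and COOH SWCNT, with 95% confidence intervals, 3 libraries a group. Filled points were called. Klf10 lies at −1.21 in LPS and at 0.26 and 0.28 in the nanotube groups, while Klf6 and Klf7 lie to the right in all 3.

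Over the set, (GT)6 SWCNT differed from LPS in 4 of 10 members, with Klf9, Klf10 and Klf13 higher and Klf6 lower. The background was 21.6% called, 9.63% higher and 11.9% lower. COOH SWCNT differed from LPS in 6 of 10, with the same 3 higher and Klf3, Klf6 and Klf7 lower, against 37.8% called (18.1% higher and 19.7% lower). Between the nanotubes, Klf6 and Klf7 were called, both higher in (GT)6 SWCNT, against 21.4% called (11.9% higher and 9.48% lower). The remaining 8 members were not called between the nanotubes, and their intervals were narrowest for Klf16 (fold 1.002, 0.931 to 1.08) and widest for Klf2 (0.751, 0.479 to 1.18). The labels give no dose for either nanotube.

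With DiBASC2, 2 members fell, Klf6 and Klf7, and no member was called higher. The background was 5.47% called, 1.82% higher and 3.64% lower. Klf7 was at 18.1, 17.2 and 18.9 CPM with DiBASC2, below every control library and below every other library of the series. Its fold against control was 0.725 (0.656 to 0.801, adjusted p 3.13e-05), and the call held in all 14 alternatives. Klf6 was at 161, 149.5 and 152 CPM, also the lowest of the 8 groups, with a fold of 0.902 (0.859 to 0.947, adjusted p 0.00608). The Klf6 call was lost without control replicate 2 or DiBASC2 replicate 3 (adjusted p up to 0.0629).

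Klf2 had its highest group mean in DiBASC2, at 1.499, 1.58 and 1.84 CPM, all above control. Its fold of 1.58 (1.05 to 2.37) was not called (adjusted p 0.202). Klf4 also had its highest mean there, at 3.56, 3.13 and 3.59 CPM, with no overlap with control and no call (fold 1.27, 0.966 to 1.68, adjusted p 0.346). Klf16 was at 35.8, 34.2 and 34.5 CPM, below all control libraries but not called (fold 0.913, 0.847 to 0.984, adjusted p 0.16).

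Neither Fura-2 nor Di-2-ANEPEQ gave a call among the 10 members. Over all genes 0.252% were called with Fura-2 and 3.08% with Di-2-ANEPEQ. At an unadjusted p under 0.05, 1 member passed with Fura-2 and 2 with Di-2-ANEPEQ, against 10.8% and 16.5% of all genes, and with DESeq2 the members called were 0 and 1. Klf16 was at 44.6, 42.7 and 41.7 CPM with Di-2-ANEPEQ, above all control libraries (fold 1.13, 1.05 to 1.21, adjusted p 0.059). DESeq2 called this gene there. Klf6 stayed close to control with both dyes, at folds of 1.01 (0.963 to 1.06) with Fura-2 and 0.991 (0.944 to 1.04) with Di-2-ANEPEQ. Klf10 had folds of 1.03 (0.924 to 1.15) and 0.998 (0.897 to 1.11).

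AAV gave 2 calls, both small rises, in Klf3 and Klf6. Over all genes 5.00% were called and 1.84% were higher. Klf6 was at 184, 186 and 184 CPM, above all control libraries, at a fold of 1.08 (1.03 to 1.13, adjusted p 0.0471). Klf3 was at 25.4, 23.4 and 24.8 CPM, also above control, at a fold of 1.18 (1.06 to 1.31, adjusted p 0.0493). The Klf6 call was lost in 10 and the Klf3 call in 7 of 14 alternatives. Those included leaving out any AAV replicate, control replicate 2 or control replicate 3, and for Klf6 also control replicate 1 (adjusted p up to 0.155 and 0.171). Klf13 was at 57.7, 64.0 and 57.1 CPM, above all control libraries, and was not called (fold 1.12, 1.04 to 1.21, adjusted p 0.0684). DESeq2, a fit of only AAV and control, and the fit with no filter on low counts called it.

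**Figure D4:**
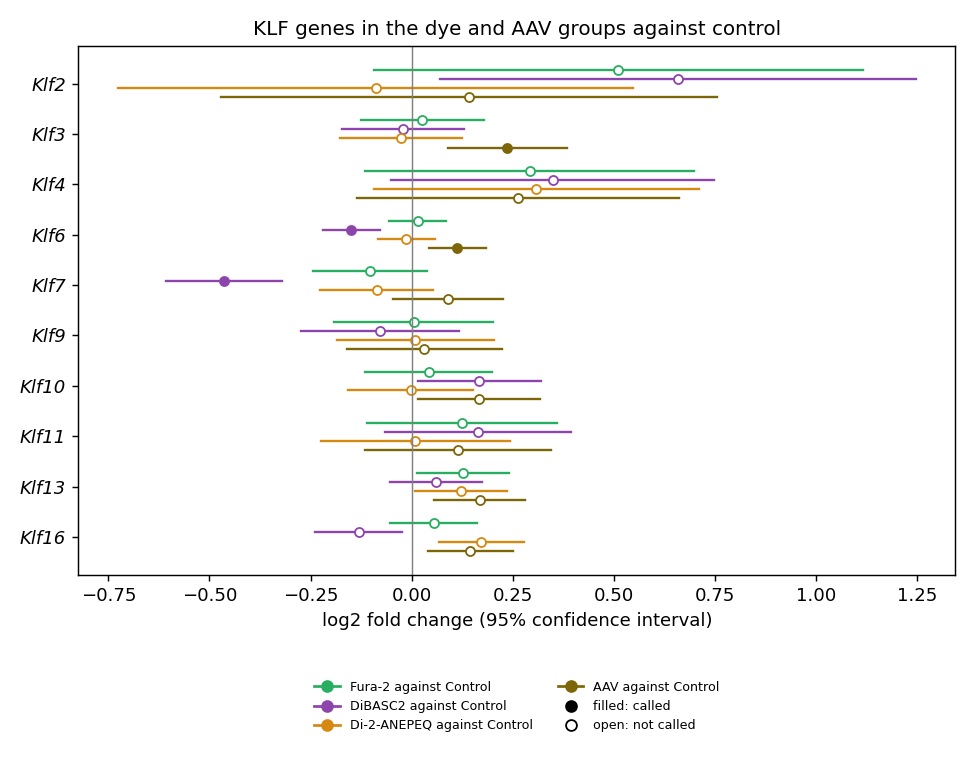
Log2 fold change of each KLF gene against control (x axis) in AAV and with the dyes Fura-2, DiBASC2 and Di-2-ANEPEQ, with 95% confidence intervals, 3 libraries a group. Filled points were called. Klf7 lies at −0.46 and Klf6 at −0.15 with DiBASC2, and the intervals of Klf2 and Klf4 are the widest.

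The order of the 8 groups was alike for Klf6 and Klf7. Klf6 ran from LPS through (GT)6 SWCNT, COOH SWCNT and AAV to Fura-2 with no overlap between neighbours. Fura-2, control and Di-2-ANEPEQ overlapped, and DiBASC2 was lowest with no overlap. For Klf7, LPS and (GT)6 SWCNT overlapped, COOH SWCNT followed with no overlap, and AAV, control, Di-2-ANEPEQ and Fura-2 overlapped in turn above DiBASC2. Across the log2 CPM of the 24 libraries, Klf6 and Klf7 had a Pearson r of 0.964, Klf10 and Klf13 0.895, and Klf9 had 0.704 with Klf10 and 0.698 with Klf13. Klf4 had −0.70 with both Klf6 and Klf7. These libraries share treatments, so the coefficients describe the pattern over groups.

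Among 9485 other genes with a mean of at least 5 CPM, the closest patterns to Klf6 over the 24 libraries were those of Csf1 (r 0.992), a macrophage growth factor, Swap70 (0.991) and the chemokine Ccl3 (0.991). Klf7 was closest to Lcp2 (0.988), an adaptor of immune receptor signalling, Slc25a25 (0.986) and the complement receptor C5ar1 (0.986). Klf10 was closest to the oxysterol receptor gene Gpr183 (0.970), Sema4c (0.961) and Rgs2 (0.959), a regulator of G protein signalling. Klf13 was closest to 1700017B05Rik (0.931), Nedd9 (0.925) and Wfs1 (0.924), and Klf9 to Cnst (0.896), Rassf8 (0.872) and Gm16201 (0.871). Klf4 and Klf2 had looser matches, led by Pars2 (0.801) and Kctd2 (0.756). The group means of Klf3, Klf11 and Klf16 spanned less than 0.5 on the log2 scale, and no match was sought for them.

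The SP factors share the KLF zinc finger domain, and 4 of their 9 genes were tested. In LPS, 1 was lower, Sp3 at 68.3 ± 3.28 CPM against 81.0 ± 2.55 in control (SD, n = 3; log2 fold change −0.25 ± 0.05, SE; adjusted p 4.64e-05). (GT)6 SWCNT gave 1 higher (Sp2, 0.23 ± 0.07, adjusted p 0.022) and 1 lower (Sp3, −0.19 ± 0.05, adjusted p 0.00156). COOH SWCNT gave 2 higher, Sp1 (0.17 ± 0.05, adjusted p 0.00741) and Sp2 (0.24 ± 0.07, adjusted p 0.0165). Called SP genes were thus 1, 2 and 2 of 4, beside 28.3%, 20.4% and 20.0% called over all genes.

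All 14 genes of KLF cofactors were tested. In LPS 2 were higher and 1 lower, in (GT)6 SWCNT 1 was lower, and in COOH SWCNT 3 were lower. These were 3, 1 and 3 of 14, beside 28.3%, 20.4% and 20.0% called over all genes. Sap30, a subunit of the Sin3 complex, rose in LPS from 129.5 ± 3.81 to 157 ± 3.999 CPM (log2 fold change 0.28 ± 0.05, SE; adjusted p 2.97e-05), and the acetyltransferase gene Ep300 fell (−0.22 ± 0.05, adjusted p 0.00158). Sin3a, the corepressor that Klf9, Klf10, Klf11, Klf13 and Klf16 recruit, fell in (GT)6 SWCNT from 84.9 ± 0.532 to 65.4 ± 2.61 CPM (−0.38 ± 0.05, adjusted p 2.71e-08).

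The list of the ERK5 and MEF2 pathway, which drives Klf2 and Klf4 in other cells, and of ubiquitin ligases that act on KLF proteins held 13 genes, all tested. In LPS 2 were higher and 3 lower, in (GT)6 SWCNT 3 were higher, and in COOH SWCNT 2 were higher. These were 5, 3 and 2 of 13, beside 28.3%, 20.4% and 20.0% called over all genes. The ubiquitin ligase gene Siah1a rose in LPS from 8.04 ± 0.394 to 11.1 ± 1.37 CPM (log2 fold change 0.47 ± 0.10, SE; adjusted p 0.000566). The MEF2 corepressor gene Hdac5 fell in LPS (−0.31 ± 0.05, adjusted p 2.62e-05). Fbxw7 rose in (GT)6 SWCNT from 40.96 ± 1.82 to 51.0 ± 1.95 CPM (0.32 ± 0.05, adjusted p 2.53e-05). Mef2a rose there (0.25 ± 0.04, adjusted p 1.99e-05) and Mef2d in COOH SWCNT (0.22 ± 0.05, adjusted p 0.000496). In LPS, Mef2a also rose (0.15 ± 0.04, adjusted p 0.00862) while Mef2c (−0.27 ± 0.05, adjusted p 3.98e-05) and Mef2d fell (−0.12 ± 0.05, adjusted p 0.0398).

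Of 16 genes linked to KLF factors in earlier work, 15 were tested. In LPS 7 were higher and 3 lower, in (GT)6 SWCNT 4 were higher and 2 lower, and in COOH SWCNT 4 were higher and 1 lower. These were 10, 6 and 5 of 15, beside 28.3%, 20.4% and 20.0% called over all genes. Nos2, the inducible nitric oxide synthase, rose in LPS from 1.72 ± 0.338 to 96.7 ± 12.1 CPM (log2 fold change 5.83 ± 0.16, SE; adjusted p 2.89e-27), and Ccl5 rose from 3.64 ± 0.824 to 9.24 ± 1.03 CPM (1.33 ± 0.15, adjusted p 2.08e-09). S1pr1, a sphingosine phosphate receptor gene known as a Klf2 target in T cells, fell in LPS from 15.7 ± 0.625 to 6.88 ± 0.626 CPM (−1.19 ± 0.09, adjusted p 4.17e-13). It also fell in (GT)6 SWCNT, to 8.62 ± 0.488 CPM (−0.88 ± 0.09, adjusted p 7.47e-10), and in COOH SWCNT (−0.33 ± 0.08, adjusted p 0.00385). With DiBASC2 it rose to 21.2 CPM (0.43, adjusted p 0.000428). Cdkn1a, a cell cycle inhibitor gene linked to Klf4 and Klf6, rose in LPS from 61.9 ± 2.73 to 110.1 ± 5.13 CPM (0.83 ± 0.05, adjusted p 6.78e-16), and by 0.55 in (GT)6 SWCNT (adjusted p 1.57e-10) and in COOH SWCNT (adjusted p 4.51e-10).

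Klf10 and Klf11 are induced by TGF-beta, and 10 genes of that pathway were tested. In LPS 4 were higher and 3 lower, in (GT)6 SWCNT 2 were higher and 3 lower, and in COOH SWCNT 3 were higher. These were 7, 5 and 3 of 10, beside 28.3%, 20.4% and 20.0% called over all genes. Skil, a SMAD inhibitor gene, rose in LPS from 27.9 ± 1.88 to 107 ± 8.01 CPM (log2 fold change 1.94 ± 0.07, SE; adjusted p 2.74e-24), and Tgif1, another repressor of SMAD signalling, rose from 39.7 ± 0.536 to 64.3 ± 1.12 CPM (0.70 ± 0.06, adjusted p 6.81e-13). Smad3 fell in (GT)6 SWCNT from 34.8 ± 2.32 to 25.5 ± 1.55 CPM (−0.45 ± 0.07, adjusted p 2.76e-06), as did the receptor gene Tgfbr1 (−0.39 ± 0.07, adjusted p 2.4e-05), which also fell in LPS (−0.23 ± 0.07, adjusted p 0.00853). Ski (−0.32 ± 0.06, adjusted p 4.74e-05) and Tgfbr2 (−0.30 ± 0.06, adjusted p 6.67e-05) fell in LPS too. The ligand gene Tgfb1 was higher in LPS (0.21 ± 0.05, adjusted p 0.000377), (GT)6 SWCNT (0.25 ± 0.05, adjusted p 5.47e-05) and COOH SWCNT (0.22 ± 0.05, adjusted p 0.000363). Smad7 was higher in LPS (0.47 ± 0.14, adjusted p 0.00652). Tgif1 rose in both nanotube groups as well, by 0.30 and 0.23.

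Klf9 is a glucocorticoid-responsive gene, and the list of such genes held 7, all tested. In LPS 1 was higher and 5 lower, in (GT)6 SWCNT 2 were higher and 2 lower, and in COOH SWCNT 2 were higher. These were 6, 4 and 2 of 7, beside 28.3%, 20.4% and 20.0% called over all genes. The phosphatase gene Dusp1 rose in LPS from 9.53 ± 1.48 to 22.95 ± 0.849 CPM (log2 fold change 1.28 ± 0.10, SE; adjusted p 1.3e-13) and in (GT)6 SWCNT to 31.1 ± 1.43 CPM (1.72 ± 0.09, adjusted p 2.14e-17), and by 1.20 ± 0.10 in COOH SWCNT (adjusted p 3.62e-12). The clock gene Per1 rose in (GT)6 SWCNT from 58.3 ± 2.84 to 92.5 ± 4.21 CPM (0.67 ± 0.06, adjusted p 5.35e-12) and in COOH SWCNT (0.53 ± 0.06, adjusted p 4.59e-09). Zbtb16 fell in LPS (−0.62 ± 0.15, adjusted p 0.00111). The 2 lower genes in (GT)6 SWCNT were Nr3c1 (−0.33 ± 0.05, adjusted p 1.84e-06) and Tsc22d3 (−0.83 ± 0.20, adjusted p 0.00234). Nr3c1 (−0.30 ± 0.05, adjusted p 5.6e-06) and Tsc22d3 (−1.36 ± 0.22, adjusted p 5.32e-06) also fell in LPS. Tsc22d3 was scarce, with a mean of 3.41 CPM over all libraries. Against LPS, 4 of the 7 were higher in (GT)6 SWCNT and 6 in COOH SWCNT, and none was lower. The shares of all genes called higher there were 9.63% and 18.1%.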

How the data were processed

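Poly-A RNA of 24 SIM-A9 libraries was sequenced, and the authors deposited 1 table of raw read counts per gene, whole numbers that were not normalized. The submitters' processing notes name STAR 2.5.4b and the build GRCm38.p6 without a role. The counting tool, strand setting and annotation release are not given in the sources used here. Symbols and positions came from GENCODE M21, which matched 54809 of 54838 identifiers when versions were ignored. Groups came from the sample titles, and 0 columns were left out.

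The tests used edgeR 4.0.16 under R 4.3.3 (filterByExpr, TMM factors, glmQLFit and glmQLFTest). All 24 libraries entered 1 model with group means (16 residual degrees of freedom, biological coefficient of variation 4.12%), and 10 contrasts were tested, two-sided. Adjusted p-values are Benjamini-Hochberg values over the 13116 genes of a contrast. CPM are given as mean ± SD and log2 fold changes with their SE or 95% interval. The script was tested on simulated data. The members and the gene lists were chosen with earlier results of these data known. All 10 members are named throughout. From every other list, the genes named in a contrast were among the 2 called ones of largest log2 fold change with at least 5 CPM. Values in LPS of S1pr1, Cdkn1a, Mef2a, Mef2c, Mef2d, Tgfb1, Tgfbr1, Tgfbr2, Smad7, Ski, Nr3c1 and Tsc22d3 were added after they were seen. So were those in (GT)6 SWCNT of Tgfb1, Tgif1, Nr3c1 and Tsc22d3, and that in COOH SWCNT of Tgfb1. Likeness used log2(CPM + 0.5), with 3 genes for each member whose group means spanned at least 0.5. Alternatives used DESeq2 1.42.0 and mgcv 1.9.3, among others. Replicates of a group differed by more than sampling noise, and each library was counted as a replicate. Correlations of the deviations of same-numbered replicates were not over 0.1 for every pair in any contrast, so numbers were not taken as pairs.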

Additional observations from a re-analysis of the deposited data

How the results depend on the processing

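Each contrast was recomputed under 14 alternatives: DESeq2 size factors, upper-quartile factors, no filter on low counts, a filter at a mean of 50 counts, the replicate block, length and GC trends removed, the DESeq2 test, a fit of only the 2 groups, and each of the 6 libraries left out. Of 32 called member results, 22 kept their call in all 14, 10 lost it in some, 7 uncalled results gained a call in some, and 0 reversed direction. The number of members called against control was 5 for LPS (4 to 7 with 1 library left out), 6 for (GT)6 SWCNT (3 to 5), 5 for COOH SWCNT (3 to 6), 2 for DiBASC2 (1 to 2) and 2 for AAV (0 to 1), and the cause was not tested. It was lowest without (GT)6 SWCNT replicate 1, without COOH SWCNT replicate 1, and, for DiBASC2, without control replicate 2 or DiBASC2 replicate 3. AAV gave 0 members with upper-quartile factors, 1 with length and GC trends removed and 1 with the replicate block. Di-2-ANEPEQ gave 0, and 1 with the replicate block or the DESeq2 test. The replicate block changed no other count of members. Same-numbered libraries of AAV and control deviated together only weakly (r from 0.024 to 0.052), although 6 of 6 correlated best with their own number, a hint from the data and not from the design.

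Counts over all genes moved by over 1.5 times in some contrasts. Fura-2 gave 33 called genes, 0 without control replicate 1 and 188 with no filter on low counts. Di-2-ANEPEQ gave 404, 120 without control replicate 1 and 814 in a fit of only the 2 groups. AAV gave 656 and 157 without control replicate 3, DiBASC2 717 and 333 without control replicate 1. The alternatives that kept all libraries shifted the median log2 fold change of all genes by at most 0.0515. Klf2 and Klf4, with the fewest counts, had the widest intervals.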
